A study of Mus musculus with 3 samples.

Results

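The cells described here are the stem cell-like cells found among marrow progenitors that did not carry the reporter of the study's leukaemia fusion gene. They were taken from the non_mCherry and control libraries by their transcripts: a cell counted as a member if it held at least 1 UMI (unique molecular identifier, 1 captured transcript) of Hlf, at least 1 UMI in 3 or more of the 7 genes Mecom, Procr, Fgd5, Meis1, Mllt3, Mycn and Myct1, and less than 0.2% of its UMIs in Cpa3, a mast cell carboxypeptidase. Chosen by these counts, the members numbered 669 among the 27541 cells of the series that passed the filters. Of these, 96 came from the 8056 filtered cells of non_mCherry and 573 from the 9066 of control. Levels of the rule's genes are therefore a description only.

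All 3 libraries of the series held lineage-negative, c-kit-positive bone marrow cells of C57BL/6 mice, sorted as DAPI-negative and profiled by droplet sequencing of the 10x Genomics kind. A single AML1/ETO mouse gave both non_mCherry and mCherry: it carried Mx1-Cre and 1 conditional allele of Runx1::Runx1t1, the fusion found in t(8;21) leukaemia, with mCherry downstream, and was given poly(I:C). The Mx1 promoter that drives Cre answers to interferon, which poly(I:C) induces. The non_mCherry cells of that mouse lacked mCherry fluorescence and the mCherry cells had it, and control was 1 wild-type mouse for which the labels name no poly(I:C). Each group was thus 1 library and 1 mouse, so there is no replicate check and no test: mouse, treatment and library cannot be told apart, and the intervals below are exact 95% intervals for counting error only.

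Blood stem cells sit at the top of the marrow hierarchy, divide rarely in the resting animal and give rise to all blood lineages. Hlf is a transcription factor largely restricted to stem and early progenitor cells, Mecom (EVI1) and Meis1 are transcription factors needed to keep stem cells, and Procr (EPCR, CD201) is a surface receptor by which they are isolated. Mllt3 maintains stem cell chromatin, Mycn is a MYC family factor, and Fgd5 marks stem cells in reporter mice. The progenitors downstream of them turn on lineage genes such as Mpo and Elane for neutrophils, Klf1 for red cells and Pf4 for platelets.

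Stem cell-like cells were scarcer in non_mCherry than in control. They made up 1.19% of non_mCherry cells (Clopper-Pearson interval 0.966% to 1.45%, 96 of 8056) and 6.32% of control cells (5.83% to 6.84%, 573 of 9066). Because the rule rests on detection and non_mCherry was the shallower library, every cell was also thinned to 4000 UMIs before the rule was applied, which left out 1114 non_mCherry and 310 control cells. At that common depth 28 of 6942 non_mCherry cells met the rule (0.403%, 0.268% to 0.582%), against 104 of 8756 control cells (1.19%, 0.971% to 1.44%). The share was thus lower in non_mCherry at both depths, and the gap between the libraries was narrower at the common depth.

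Hlf alone gave the same order. A UMI of Hlf was present in 8.57% of non_mCherry cells and 19.6% of control cells, and after thinning in 4.39% and 9.09%. In red cell-rule cells (at least 4 of 8 red cell genes, Klf1, Gata1, Car1 and Epor among them), which should lack Hlf, 3.59% of non_mCherry and 7.85% of control cells had a UMI of it, at median depths of 17854 and 21446.5 UMIs, and after thinning 1.0% and 1.46%. The members' own median depth was 8694.5 UMIs in non_mCherry and 11945 in control.

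**Figure D1:**
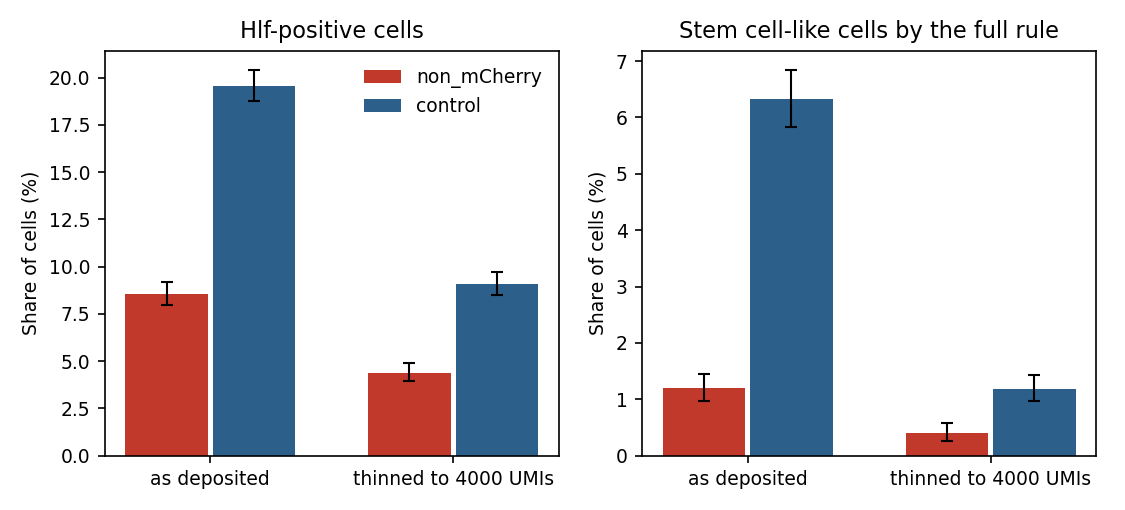
Share of cells (%) with a UMI of Hlf (left) and meeting the full rule (right), in cells as deposited and after thinning each to 4000 UMIs; bars are the 1 library of each group and error bars are exact 95% binomial intervals for counting error. The non_mCherry share was lower in each pair, 1.19% against 6.32% for the full rule and 0.403% against 1.19% after thinning.

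The make-up of the rest of each library bears on these shares. B-rule cells (at least 4 of Cd79a, Cd79b, Vpreb1, Vpreb3, Igll1, Ebf1, Pax5 and Rag1) made up 28.9% of non_mCherry and 0.585% of control cells. With those cells taken out of the denominator, members were 1.68% of non_mCherry and 6.36% of control cells, or 0.520% and 1.19% after thinning. For comparison, the same rule picked 338 of 10419 mCherry cells (3.24%). In mCherry 3001 cells met the Hlf and 7-gene parts of the rule when Cpa3 was ignored, against 103 in non_mCherry and 574 in control, so the Cpa3 part removed 7 cells in non_mCherry and 1 in control.

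Members sat close to the threshold more often in non_mCherry, in counts that were not thinned. The number of genes found depends on depth, and the median was 8694.5 UMIs in non_mCherry members and 11945 in control members. Of the 96 non_mCherry members, 69 had exactly 3 of the 7 genes (71.9%), 24 had 4 and 3 had more, while of the 573 control members 335 had exactly 3 (58.5%), 173 had 4 and 65 had more. Just outside, 183 non_mCherry and 464 control cells had Hlf with 2 of the 7 genes. Mecom stood at 46.3 CPM (counts of a gene scaled to the summed UMIs of the cells) in non_mCherry members with 3 genes and 13.1 CPM in the cells with 2; the control values were 31.7 and 6.87 CPM. Hlf stood at 155 and 107 CPM in the same non_mCherry cells, and at 156 and 136 CPM in the control cells. Hlf-negative cells with at least 3 of the 7 genes numbered 276 in non_mCherry and 496 in control.

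Of the 8 rule genes with at least 20 CPM in either set of members, 1 was past 1.5-fold between the libraries, Cpa3. Cpa3, of which the rule sets an upper limit, stood at 131 CPM in non_mCherry members and 66.1 CPM in control members, with 35.6% of its non_mCherry UMIs in 1 cell. Hlf, on chromosome 11 (mm10 90336536 to 90390895, minus strand), stood at 155 CPM in non_mCherry members and 175 CPM in control members. Mecom stood at 51.7 and 50.7 CPM, Procr at 25.8 and 19.8 CPM, Meis1 at 174 and 161 CPM, Mllt3 at 62.6 and 52.5 CPM, Myct1 at 203 and 191 CPM and Mycn at 36.8 and 29.8 CPM. Fgd5 was the sparsest, with 6 UMIs in non_mCherry members (5.96 CPM) and 74 in control members (8.89 CPM). Mllt3 is the least specific of the genes in these libraries: red cell-rule cells had 48.6 CPM of it in non_mCherry and 39.8 CPM in control, and B-rule cells 32.4 and 30.1 CPM.

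Against the other cells of their own library, members carried more of the stem cell genes that the rule did not use. Differences are given as log2 ratios of summed CPM with 5 CPM added to both sides, over genes with at least 20 CPM in either set, and a gene counts as apart at 1.5-fold on that scale. In non_mCherry 471 of 5950 genes were higher in members (7.92%) and 294 lower (4.94%), and in control 407 of 5932 were higher (6.86%) and 170 lower (2.87%). In both libraries at once, 230 genes were higher and 108 lower of the 5633 measured in both. Genes expressed together with the rule's genes move with the choice of cells, so these counts describe the chosen cells.

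Among the transcription factors and regulators listed for stem cells outside the rule, 9 of 16 measured were higher in members in non_mCherry and 8 of 15 in control, with 0 lower in either; the list's median log2 ratio was 0.64 and 0.65, beside 0.03 and 0.05 over all measured genes. Nkx2-3, a homeobox factor, ranked first of the genes outside the rule by the smaller of its ratios in the 2 libraries. It stood at 56.7 CPM in non_mCherry members against 3.71 CPM in the other cells (15.3-fold, 11.3 to 20.3), and at 75.8 against 6.16 CPM in control (12.3-fold, 11.1 to 13.7). Hoxa9 (50.7 against 30.7 CPM in non_mCherry, 68.6 against 30.3 CPM in control) and Erg (77.5 against 38.2 CPM, and 60.1 against 20.6 CPM) were also past 1.5-fold in both. Gata2, needed to form and keep stem cells, was closer, with 121 against 87.5 CPM in non_mCherry and 137 against 98.9 CPM in control.

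Surface and niche genes behaved the same way: 10 of 15 measured were higher in members in non_mCherry and 13 of 17 in control, with 0 lower in either and list medians of 0.81 and 0.84. Ly6a encodes Sca-1, the antigen by which mouse stem cells are sorted. Its level was 91.4 CPM in non_mCherry members against 18.9 CPM in other cells (4.83-fold, 3.87 to 5.96), and 37.9 against 5.56 CPM in control (6.81-fold, 5.96 to 7.78). Esam, an adhesion molecule of stem cells and endothelium that is under the 20 CPM minimum and not in these counts, stood at 19.9 against 1.88 CPM in non_mCherry and at 16.7 against 1.78 CPM in control. Vldlr, a lipoprotein receptor, stood at 26.8 against 3.28 CPM and at 35.7 against 4.60 CPM. Kit, on which the cells were sorted, was 1.83-fold higher in members in non_mCherry (102 against 56.1 CPM) and 1.86-fold higher in control (118 against 63.6 CPM), and Cd34 2.36-fold and 1.66-fold.

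Further genes far above the other cells in both libraries have other roles. Ctla2a and the related Ctla2b encode cysteine protease inhibitors; Ctla2a stood at 807 against 210 CPM in non_mCherry and at 679 against 185 CPM in control. Because these copies are alike, reads could be split between them by the counting. Nr4a1, an early response nuclear receptor, stood at 130 against 32.3 CPM and at 259 against 63.1 CPM. Rgs1, a brake on chemokine receptor signalling, stood at 242 against 64.2 CPM and at 367 against 89.1 CPM, and Adgrl4, an adhesion receptor, at 138 against 28.9 CPM and 147 against 39.0 CPM. Pglyrp2, Gcnt2, Nrgn and Socs3 were also among the genes furthest higher, together with Pf4 and Selp.

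In summed UMIs, the platelet side of the stem cell programme was high as well, but unevenly over the members. Of the genes listed for platelet-primed stem cells, 8 of 10 were higher in members in non_mCherry and 9 of 11 in control. Over all measured genes the shares were 7.92% and 6.86%. The top 10% of members held 55.4% of the list's UMIs in non_mCherry and 59.6% in control. The median member had 554 CPM of the list in non_mCherry, against 314 CPM in the median other cell. In control the values were 518 and 279 CPM. Selp, the adhesion molecule P-selectin of platelets, stood at 69.6 against 13.2 CPM in non_mCherry and at 33.2 against 8.21 CPM in control. Vwf, which marks platelet-biased stem cells and is likewise too low to be in these counts, stood at 18.9 against 3.42 CPM and at 12.3 against 3.56 CPM. Pf4, a platelet chemokine, stood at 293 against 42.2 CPM and at 352 against 103 CPM, but 51.2% of its UMIs in non_mCherry members came from 1 cell. Without the members high in markers of another class, defined below, Pf4 in control was lower in members than in the other cells (log2 -0.93). With the rule applied after thinning to 4000 UMIs, Pf4 was lower in members in both libraries (log2 -0.77 in non_mCherry and -1.49 in control). The listed megakaryocyte markers had 0 UMIs in 44 of 96 non_mCherry and 273 of 573 control members.

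In summed UMIs, genes of later myeloid cells were lower in members than in the other cells. All 6 neutrophil markers measured in non_mCherry and all 7 in control were past 1.5-fold lower, with medians of -1.54 and -1.66. The sums weigh the cells with the most transcripts: the median cell had 998 CPM of the neutrophil markers together among non_mCherry members against 428 CPM among the other cells, and 1092 against 4225 CPM in control. With at least 2 of the 7 genes as the rule, the list median in non_mCherry was 0.022 and the ratio of Mpo 0.040. Mpo, the granule peroxidase, stood at 610 CPM in non_mCherry members against 1589 CPM in the other cells and at 1011 against 2723 CPM in control, and Elane, neutrophil elastase, at 431 against 1418 CPM and 672 against 3010.1 CPM. Irf8, the factor of monocyte and dendritic fate, stood at 31.8 against 187 CPM and 50.1 against 277 CPM. The 10 genes furthest lower in both libraries were Prg2 of eosinophils, Jchain of antibody-secreting cells, Prss34 of basophils, Camp, S100a8 and S100a9 of neutrophils, Ly86, Ly6c2 and F13a1 of monocytes, and Irf8.

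**Figure D2:**
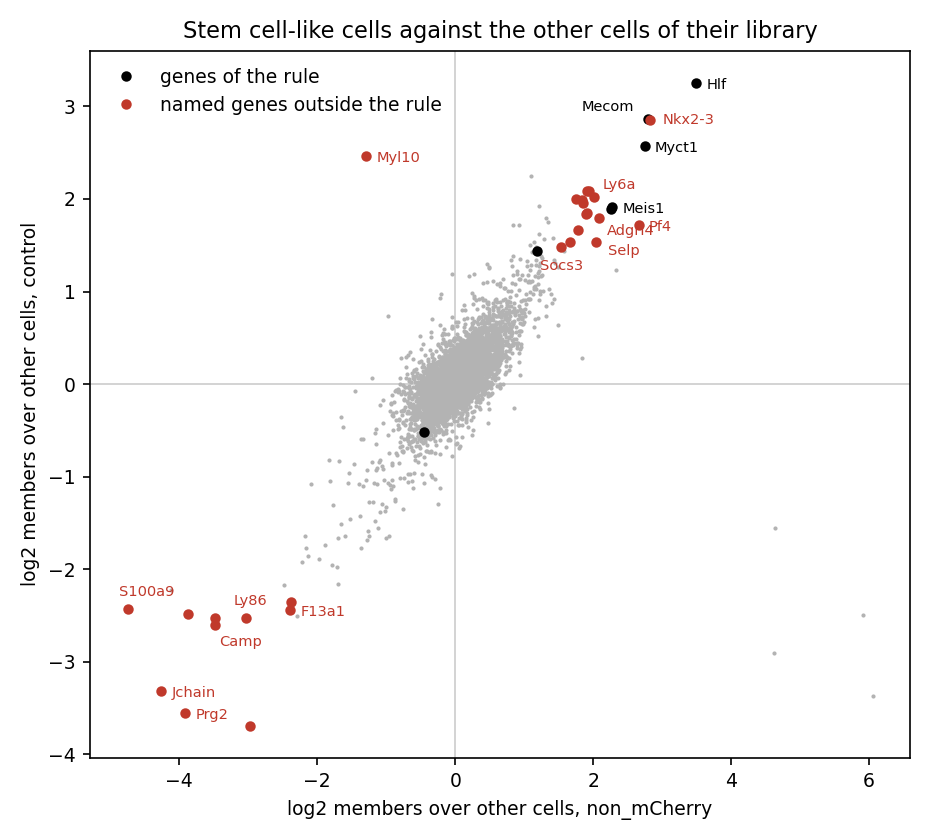
Each point is a gene, by its log2 ratio of members over other cells in non_mCherry (horizontal axis) and control (vertical axis); black points are genes of the rule and red points the other genes named. Nkx2-3 lies beside the rule's genes at the upper right, and Myl10 lies alone at the upper left, at -1.30 in non_mCherry and 2.47 in control.

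In summed UMIs, most cell cycle genes lay within 1.5-fold. The S phase list had 42 measured genes, of which 6 in non_mCherry and 1 in control were lower in members, with 0 higher in either. Of 39 G2 and M phase genes measured in non_mCherry 1 was lower and 0 higher. Of 40 in control 1 was higher and 0 lower. Over all measured genes 7.92% were higher and 4.94% lower in non_mCherry, and 6.86% and 2.87% in control. The median cell was lower among members. For the S phase list it had 2531 against 3737.5 CPM in non_mCherry and 3584 against 4291 CPM in control. For the G2 and M phase list it had 2515 against 3918 CPM and 3121 against 4231 CPM. Mki67, made in dividing cells, stood at 237 CPM in non_mCherry members against 267 CPM in the other cells and at 268 against 218 CPM in control. Rrm2, a DNA synthesis enzyme subunit, was lower at 60.6 against 123 CPM in non_mCherry and at 65.7 against 113 CPM in control. Cdkn1a (p21), a brake on the cycle, was higher: 194 against 70.1 CPM in non_mCherry and 141 against 74.3 CPM in control. Cdkn1b (p27) stood at 80.5 against 61.5 CPM and at 56.5 against 38.7 CPM. Few energy genes were past 1.5-fold in either library. Of the nuclear oxidative phosphorylation genes 4 of 73 were lower in non_mCherry and 2 of 73 in control, with 0 higher. The list medians were -0.22 and -0.18, beside 0.03 and 0.05 over all measured genes. Mitochondrially encoded genes had medians of 0.15 and 0.34. Of fatty acid oxidation genes 1 of 17 was higher in non_mCherry and 0 of 16 in control, with 0 lower and medians of 0.0013 and 0.015.

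Some levels followed the number of rule genes a cell held, up to 4 of the 7. Among Hlf-positive cells below the Cpa3 threshold with 0, 1, 2, 3 and 4 of the 7 genes, Ctla2a stood at 171, 376, 460, 738 and 964 CPM in non_mCherry and at 105, 279, 552, 617 and 797 CPM in control. Kit stood at 62.0, 79.9, 92.1, 95.5 and 115 CPM in non_mCherry and at 64.0, 80.9, 101, 118 and 119 CPM in control. Mpo was lower at the far end of the series in both libraries, with 3013, 1996, 2051, 793 and 206 CPM in non_mCherry and 3664, 2494, 1534, 1264 and 480 CPM in control. Mki67 had no such order in non_mCherry, where it stood at 125, 219, 168, 221 and 287 CPM, and in control it stood at 153, 175, 218, 272 and 236 CPM. The 65 control cells with 5 or more of the genes did not extend these orders: Ctla2a stood at 723 CPM, Kit at 115 CPM and Mpo at 970 CPM in them. Median depth did not climb with these bins: it was 12692, 11416, 11342, 8685 and 9634.5 UMIs in non_mCherry and 18045.5, 14420, 12495, 12248 and 11947 UMIs in control.

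**Figure D3:**
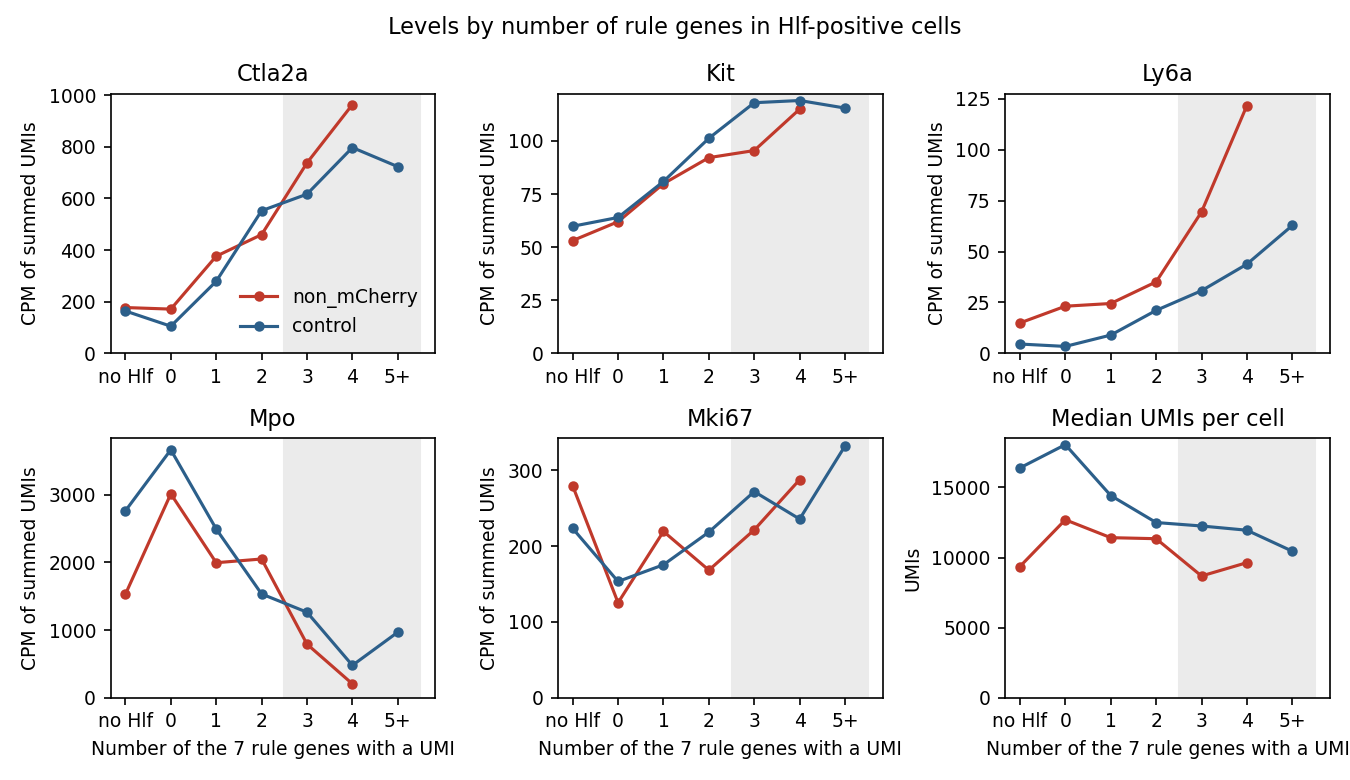
CPM of summed UMIs of 5 genes, and median UMIs per cell, in cells without Hlf and in Hlf-positive cells by how many of the 7 rule genes had a UMI; the grey area holds the members, and the non_mCherry point for 5 or more genes (3 cells) is not drawn. Ctla2a, Kit and Ly6a were higher and Mpo lower in cells with 3 or 4 of the genes than in Hlf-positive cells with 0, in both libraries.

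The member set was not uniform. Some cells met the rule and also carried many transcripts of a later blood class. A member was counted as such when the listed markers of a class summed to over 2000 CPM in that cell, or over 5000 CPM for neutrophil markers, thresholds set after seeing the data. This held for 23 of 96 non_mCherry members (24%) and 122 of 573 control members (21.3%). Neutrophil markers did so in 8 non_mCherry and 63 control members, megakaryocyte markers in 3 and 31, erythroid markers in 3 and 18, monocyte and dendritic markers in 3 and 11, and B cell markers in 5 and 1. A doublet score (Scrublet) above 0.25 was found in 3 non_mCherry and 23 control members, of which 3 and 21 were among these cells. Whether the others are 1 cell or 2 was not tested. Endothelial markers, which share several stem cell genes, summed to 12.9 CPM in non_mCherry members and 20.8 CPM in control members. The other cells had 6.69 and 6.47 CPM, so members were the higher in both libraries. These markers had 0 UMIs in 84 of 96 non_mCherry and 426 of 573 control members. Cdh5, a defining endothelial gene, had 0 UMIs in the members of both.

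**Figure D4:**
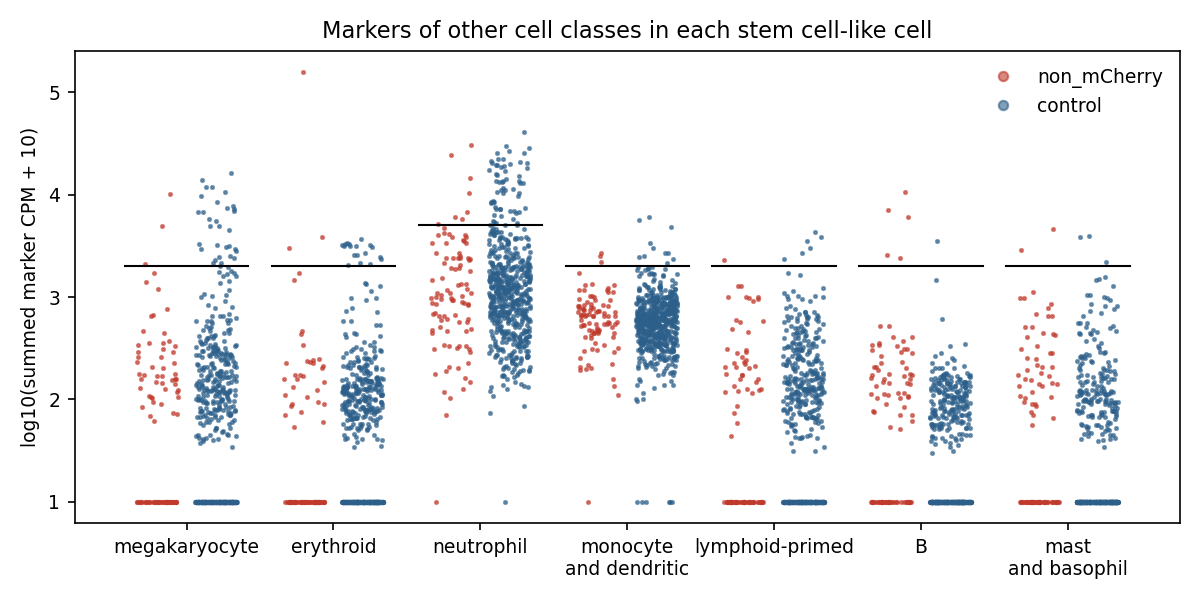
Each point is 1 stem cell-like cell; the vertical axis is log10 of the summed CPM of a class's markers plus 10, for 96 non_mCherry and 573 control cells, and black lines mark the thresholds. Most cells lie below the lines, and 1 non_mCherry cell stands far above the rest in erythroid markers.

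Between the libraries, most genes of the members were close. Of 6034 genes with at least 20 CPM in either set, 108 were higher in non_mCherry members than in control members (1.79%) and 179 lower (2.97%). The members' sums held 1006111 UMIs in non_mCherry and 8319445 in control, so counting error in non_mCherry is the wider. Stem cell factors outside the rule had 1 of 16 higher and 0 lower in non_mCherry (median log2 -0.04, beside -0.04 over all measured genes). The 1 was Gfi1, a repressor that restrains stem cell division, at 20.9 against 9.74 CPM. Without the members high in markers of another class, Gfi1 stood at 10.1 against 7.24 CPM. There Hoxa9, of the same list, stood at 46.0 against 80.6 CPM, past 1.5-fold lower. Over all members, oxidative phosphorylation genes had 0 of 73 and fatty acid oxidation genes 0 of 17 in either direction, and G2 and M phase genes 0 of 40. The S phase list had 4 of its 42 genes lower in non_mCherry members and 0 higher, with Exo1, a repair nuclease, at 12.9 against 30.7 CPM; with the rule applied after thinning its log2 ratio was 0.93.

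The genes furthest higher in non_mCherry members were marks of other lineages and in part rested on few cells. They were the globins Hbb-bs, Hba-a2, Hba-a1 and Hbb-bt, the B lineage genes Vpreb1, Igll1, Vpreb3, Ebf1 and Cd79a, and the mast cell protease Cma1. Hbb-bs stood at 2756 CPM in non_mCherry members and 23.8 CPM in control members, and 99.6% of its UMIs in non_mCherry members came from 1 cell. The same held for Cma1 (22.9 against 0.120 CPM, 95.7% in 1 cell). Vpreb1, of the surrogate light chain of early B cells, stood at 89.5 against 2.16 CPM, with 43.3% in 1 cell, in a library where B-rule cells were 28.9% of all. The B markers were less confined to few cells: they had 0 UMIs in 39 of 96 non_mCherry members and 357 of 573 control members. Without the members high in other markers, 73 non_mCherry and 451 control cells were left, and Hbb-bs stood at 12.9 against 20.8 CPM. Vpreb1 then stood at 17.3 against 1.49 CPM, and Igll1 and Vpreb3 each at 11.5 against 0.186 CPM, all under 20 CPM. In that setting 181 of 6213 genes were higher (2.91%) and 282 lower (4.54%).

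Some stem cell genes stood higher in non_mCherry members without resting on 1 cell: 2 of 17 measured surface and niche genes, Ly6a and Clca3a1, were past 1.5-fold higher and 2 lower, with a list median of -0.07. Slamf1 (CD150), the surface antigen of long-term stem cells, had 18 UMIs in non_mCherry members (17.9 CPM) and 41 in control members (4.93 CPM), a 3.63-fold difference (1.96 to 6.46); it is under 20 CPM in both and so is not among the genes counted. It was found in 12 of 96 non_mCherry and 34 of 573 control members (12.5% and 5.93%; 7.87% and 1.94% after thinning), while B-rule cells, which should lack it, had it in 1.33% and 3.77%, or 0.837% after thinning in non_mCherry, at median depths of 5755.5 and 7356 UMIs. Red cell-rule cells also carried it, in 17.1% of non_mCherry and 12.9% of control cells, at 11.7 and 7.20 CPM. Ly6a was 2.42-fold higher (1.89 to 3.06), at 91.4 against 37.9 CPM, and Selp 2.10-fold higher (1.59 to 2.74). Ly6a was also higher in non_mCherry outside the members, with 56.8 against 16.3 CPM in cells with Dntt and Flt3. Clca3a1, a surface gene listed for stem cells, stood at 25.8 against 4.57 CPM (5.66-fold, 3.30 to 9.56).

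Id1 and Id3, inhibitors of basic helix-loop-helix factors and targets of BMP signals, were higher in non_mCherry members too. Id1 stood at 48.7 against 14.2 CPM (3.43-fold, 2.41 to 4.83) and Id3 at 32.8 against 5.05 CPM (6.5-fold, 3.99 to 10.5). B-rule cells carried Id3 at 190 CPM in non_mCherry and 70.9 CPM in control. Id1 and Id3 were the 2 of 14 measured TGF-beta, BMP and Id genes past 1.5-fold, with 0 lower and a list median of -0.03. Over all measured genes 1.79% were higher and 2.97% lower, with a median of -0.04. Without the members high in other markers, Id1 stood at 53.2 against 15.8 CPM, Id3 at 21.6 against 4.08 CPM, Slamf1 at 18.7 against 4.83 CPM, Ly6a at 97.8 against 50.9 CPM and Selp at 84.9 against 38.4 CPM. Klf2, a quiescence-linked factor of immune cells, stood at 186 against 115 CPM over all members.

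Of the multipotent progenitor genes 2 of 12 were lower in non_mCherry members, Flt3 and Mpo, and 0 higher, with a median of 0.06. Mpo was not stable: its log2 ratio was 0.38 with at least 2 of the 7 genes and 0.14 with the rule applied after thinning. Without members high in markers of another class its log2 ratio was -0.28. Of the immediate early and stress genes 3 of 25 were lower and 1, Klf2, higher, also with a median of 0.06. Over all measured genes 2.97% were lower and 1.79% higher, with a median of -0.04. Flt3, the receptor that marks lymphoid-directed progenitors, stood at 21.9 CPM in non_mCherry members and 38.9 CPM in control members (0.561-fold, 0.347 to 0.865). Abcg2, the pump behind the side population of stem cells, stood at 20.9 against 39.1 CPM. Nr4a1 stood at 130 against 259 CPM (0.502-fold, 0.418 to 0.599) and Klf4 at 17.9 against 30.7 CPM, while Egr1, another early response gene, was level at 95.4 and 91.1 CPM. Cebpa, the factor of granulocyte fate, stood at 12.9 against 32.1 CPM, and Ldhb, a lactate dehydrogenase subunit, at 19.9 against 47.8 CPM. Cd34 (260 and 259 CPM), Kit (102 and 118 CPM), Mki67 (237 and 268 CPM) and Runx1 (189 and 160 CPM) lay within 1.5-fold. Of the other genes furthest lower, S100a9, S100a8, Ngp, Camp, Ly6c2 and Slpi belong to neutrophils and monocytes; S100a9 stood at 6.96 against 86.1 CPM, with 77.7% of its control UMIs in 1 cell.

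Myl10 was the gene furthest lower in non_mCherry members. It encodes a regulatory myosin light chain on chromosome 5 (mm10 136693146 to 136701094, plus strand). It stood at 25.8 CPM in non_mCherry members (26 UMIs, interval 16.9 to 37.9 CPM) and at 295 CPM in control members (2455 UMIs, 284 to 307 CPM), 0.0876-fold (0.0571 to 0.129). In members of mCherry by the same rule it stood at 39.6 CPM. It was found in 20.8% of non_mCherry and 68.6% of control members, and after thinning in 10.1% and 49.4%, while red cell-rule cells had it in 6.58% and 4.77%, or 2.11% and 1.14% after thinning. No control member held more than 1.47% of its UMIs. In cells just outside the rule, with 2 of the 7 genes, it stood at 24.1 CPM in non_mCherry and 186 CPM in control. In cells with Dntt and Flt3 it stood at 136 and 406 CPM, and in B-rule cells at 306 and 355 CPM. The gap between the libraries was thus wide in the stem cell-like cells and narrow in the B-rule cells.

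**Figure D5:**
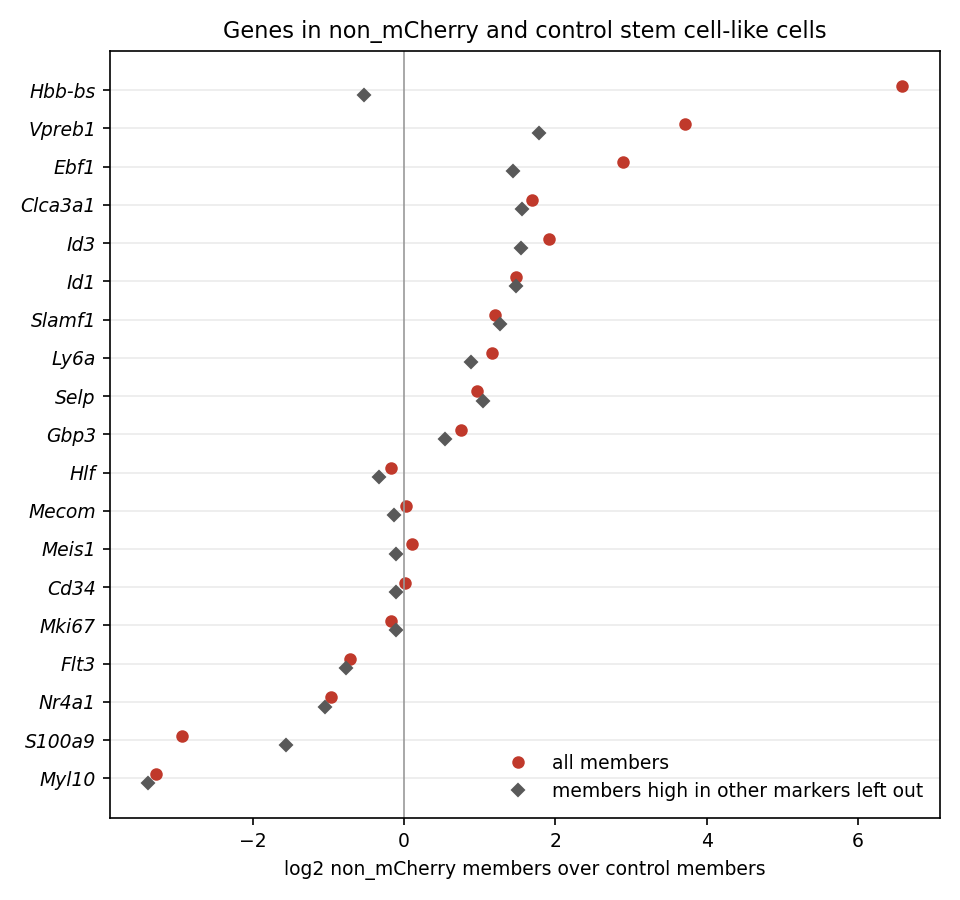
log2 ratio of CPM in non_mCherry members over control members for 19 genes, over all members (circles) and without members high in markers of another class (diamonds). Hbb-bs changes side, Myl10, Nr4a1 and Flt3 lie left of 0 and Slamf1, Ly6a, Selp, Id1, Id3 and Clca3a1 right of 0 in both.

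Interferon response genes were of interest because poly(I:C) induces interferon in the mouse that gave the non_mCherry cells. Of 24 measured, 4 were higher in non_mCherry members and 0 lower, with a median of 0.30. Over all measured genes 1.79% were higher and 2.97% lower, with a median of -0.04. The 4 were Ly6a, the guanylate-binding proteins Gbp3 (32.8 against 17.3 CPM) and Gbp7 (71.6 against 45.4 CPM), and the transcription factor Irf1 (49.7 against 29.8 CPM). Summed over the list, members had 5393 CPM in non_mCherry and 4831 CPM in control. The other cells of these libraries had 4558 and 4014 CPM, so non_mCherry was also the higher outside the members. Without members high in other markers, Gbp3 (log2 0.54) and Irf1 (log2 0.58) were under the 1.5-fold line. Ifitm3, an antiviral membrane protein, was level at 647 and 656 CPM. Guanylate-binding protein genes are alike in sequence, so reads could be split between copies. Of class II histocompatibility genes 3 of 5 were higher, among them H2-Aa at 21.9 against 7.57 CPM, with a median of 0.81. That direction was not stable: the median was -0.036 with Cpa3 limited to below 0.05% of UMIs and -0.0067 with the rule applied after thinning.

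A promoter window each of Gbp3 and Gbp7 is shown because it holds the core of the interferon-stimulated response element, the site bound by interferon-activated factors. The core was searched by 1 pattern on both strands, in windows from 250 bases before to 50 after each start in the RefSeq promoter table (GRCm38.p6). It was present in 20 of 36 genes of the interferon list (55.6%), against 1079 of all 27025 genes in the table (3.99%). Among genes with at least 20 CPM in members it was present in 8 of 19 of the interferon list (42.1%) and 183 of 4706 in all (3.89%). Of the genes 1.5-fold higher that the table held, 2 of 3 had it, Irf1 did not, and Ly6a is named only. Capitals mark the core, which lies on the minus strand in both, and in Gbp3 2 copies overlap; a second Gbp3 window of the table, chr3:142560106-142560405, holds none; windows are chr3:142559794-142560093 and chr3:142530086-142530385, plus strand.
Gbp3: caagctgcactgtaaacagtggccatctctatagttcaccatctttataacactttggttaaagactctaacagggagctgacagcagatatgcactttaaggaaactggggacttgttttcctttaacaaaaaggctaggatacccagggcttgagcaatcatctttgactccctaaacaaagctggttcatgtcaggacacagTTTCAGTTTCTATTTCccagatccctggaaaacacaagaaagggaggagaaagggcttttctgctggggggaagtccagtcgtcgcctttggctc
Gbp7: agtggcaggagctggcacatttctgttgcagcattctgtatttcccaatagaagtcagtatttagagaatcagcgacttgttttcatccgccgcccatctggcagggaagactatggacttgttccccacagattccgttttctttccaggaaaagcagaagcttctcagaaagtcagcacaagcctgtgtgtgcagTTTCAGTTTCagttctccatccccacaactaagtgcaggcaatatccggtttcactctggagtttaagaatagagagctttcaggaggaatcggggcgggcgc

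Transcripts of the fusion's partner gene were not detected in non_mCherry members. Runx1t1 had 0 UMIs in them, where 3 UMIs would stand at 2.98 CPM. It had 6 UMIs in control members (0.72 CPM) and 33 in mCherry cells by the same rule (9.82 CPM). The fusion and mCherry are not listed as features of their own, and how the authors' counting assigned fusion reads is not given in the sources used here. Members differed little in general quality: median mitochondrial UMIs were 2.17% in non_mCherry and 2.47% in control members, and at 4000 UMIs members had a median of 1665 and 1711 genes. The libraries held 92776556 UMIs over 9751 barcodes in non_mCherry and 150702749 over 9782 in control; they shared 24 barcodes, none of them members in both.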

How the data were processed

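UMI counts of 27998 gene identifiers by cell barcode, not normalized, were deposited by the authors as 1 matrix per library. The submitters' processing notes name Cell Ranger 6.1.2 and the build mm10; per the file headers the software was version 3.1.0, and which applies is not settled. Cells with at least 1000 genes, at least 2000 UMIs and under 10% mitochondrial UMIs were kept. UMIs of members and of other cells were summed per library and scaled to CPM (numpy 2.4.6, scipy 1.17.1, pandas 2.3.3); ratios have exact conditional intervals, sums exact Poisson intervals. Doublets were scored with Scrublet in scanpy 1.11.5 and kept. GENCODE M21 gave locations and matched 27645 identifiers. Scripts were tested on simulated data. Named genes were the 10 furthest higher and lower between libraries, the 15 higher and 10 lower against other cells, the rule's genes and list extremes; Slamf1, Cd34, Mki67 and others were named after their values were seen. Members and lists were chosen with earlier results of these data known. Alternatives changed the rule, depth, doublets, mitochondrial limit, scaling, pseudocount, averaging and floor. Some genes that these rules select are not reported here.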

Additional observations from a re-analysis of the deposited data

Results flagged for a closer look

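Myl10 stood on opposite sides in the 2 libraries when members were set against the other cells of their own library. The log2 ratio was -1.3 in non_mCherry, where members had 25.8 CPM and other cells 70.7 CPM, and 2.47 in control, where members had 295 CPM and other cells 49.2 CPM. The difference was not tested, since each group is 1 library. B-rule cells carry Myl10 at 306 CPM in non_mCherry and 355 CPM in control and make up 28.9% and 0.585% of the cells; with them left out of the other cells, the ratio in non_mCherry was 0.63. The lower level in non_mCherry members than in control members does not rest on that choice of other cells. Groups of 1 library allow no search for samples that stand apart.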

How the results depend on the processing

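No paired analysis was possible because each group is 1 library and carries no replicate number. Over all settings, 112 values of the main results stayed close and 54 moved. Of the values of named genes, 2459 stayed close, 711 moved and 26 changed sign. Of the list medians, 1134 stayed close, 252 moved and 7 changed sign. A change of sign was counted only where the main value was past 1.5-fold. Smaller values that crossed, such as Meis1 between libraries without members high in markers of another class, are not counted as changes of sign. The causes were not tested. The share of members was lower in non_mCherry than in control under each setting run. The settings that leave out members high in markers of another class, and B-rule cells from the other cells, were chosen after seeing the data. In what follows counts of genes or list medians apart are given as higher and lower, and the changes of sign so counted as log2 ratios. The main values between libraries were 108 and 179 genes and 4 and 0 list medians. For members over other cells they were 471 and 294 genes and 6 and 7 list medians in non_mCherry. In control they were 407 and 170 genes and 7 and 5 list medians.

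With the rule applied after thinning to 4000 UMIs, shares were 0.403% in non_mCherry and 1.19% in control. Between libraries 1006 genes were higher and 1067 lower, and 3 list medians lower; 28 non_mCherry cells enter there. Members over other cells gave 1777 and 1084 genes and 13 list medians higher in non_mCherry, and 1377 and 907 genes and 11 and 9 list medians in control. Between libraries the erythroid median was -1.04, over 2 measured genes, and the class II median -0.0067. Among genes Hbb-bs was -1.67, Hba-a2 -0.26, Hba-a1 -1.92, S100a8 0.69, Camp 0.33, Mpo 0.14 and Exo1 0.93. Over other cells Pf4 was -0.77 in non_mCherry, and in control Pf4 was -1.49, Gp1bb -1.55 and the megakaryocyte median -0.55, over 2 measured genes.

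With at least 4 of the 7 genes, shares were 0.335% and 2.63%; 479 genes were higher and 671 lower between libraries, with 3 list medians lower, and 937 higher and 585 lower over other cells in non_mCherry. Between libraries Hbb-bs was -0.46, Hba-a2 -1.54, Hba-a1 -1.11 and Hbb-bt -0.77. With at least 2 of the 7, shares were 3.46% and 11.4%; 63 genes were higher and 60 lower between libraries, with 2 list medians higher and 1 lower, and 195 higher and 164 lower over other cells in non_mCherry. Between libraries Mpo was 0.38 and Elane 0.62; over other cells in non_mCherry the neutrophil median was 0.022, Mpo 0.040, H2-Aa -0.037 and Cebpa 0.16.

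With Cpa3 below 0.05%, the class II median between libraries was -0.036 and 1 list median was higher. With the mean over cells, 256 genes were higher and 273 lower between libraries, with 1 list median lower, and 471 were lower over other cells in non_mCherry. A floor of 50 CPM gave 37 and 44 genes between libraries, 204 and 143 over other cells in non_mCherry and 195 and 98 in control. A floor of 5 CPM gave 285 and 482 genes with 2 list medians lower, 920 and 531, and 727 and 274.

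Without members high in markers of another class, shares were 0.906% and 4.97%; 181 genes were higher and 282 lower between libraries, with 2 list medians higher and 1 lower, and 686 higher and 304 lower over other cells in control, with 11 list medians higher. Between libraries the B cell median was -0.067, over 1 measured gene. Vpreb1, Igll1, Vpreb3 and Ebf1, under 20 CPM in both sets there, stood at 1.78, 1.67, 1.67 and 1.45. Hbb-bs was -0.52, Hba-a2 -0.42, Hba-a1 -0.76, Ly6c2 0.011 and Camp 0.33, and Pf4 over other cells in control was -0.93. Without B-rule cells among the other cells in non_mCherry, the B cell median was 2.21 and Myl10 0.63. A total of 1006111 UMIs in non_mCherry members limits genes near the floor.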

Other observations

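Single members combined markers that divide the early stem and progenitor cells. Flt3 was found in 17 of 96 non_mCherry members (17.7%) and 182 of 573 control members (31.8%), and Cd48, an antigen gained as stem cells become progenitors, in 73 (76.0%) and 364 (63.5%). Slamf1 and Cd48 were found together in 8 non_mCherry and 16 control members, and Slamf1 and Flt3 in 1 and 4. Pf4 was found in 17 and 121 members, and together with Flt3 in 1 and 16. Mpo was found in 67 non_mCherry members (69.8%) and 434 control members (75.7%). Hlf was carried as a single UMI by 56 non_mCherry members (58.3%) and 243 control members (42.4%), and as 4 or more by 2 and 139. These detections depend on depth, which was lower in non_mCherry members (median 8694.5 UMIs) than in control members (11945), and were not thinned.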
